A study of Mus musculus with 78 samples.

Results

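The genes Ctss, P2ry12, Fcrls, Cx3cr1, Csf1r, C1qa, C1qb, Tmem119 and Trem2, which adult microglia express at rest, were followed in the mouse striatum during and after repeated methamphetamine or heroin. All probes that the platform annotation assigns to these 9 symbols were taken, which gave 13 probes of the 45281 on the array and 9 of its 19057 gene symbols. Fcrls had 3 probes, Csf1r and P2ry12 had 2 each, and the other 6 genes had 1 each.

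The striatal RNA came from C57BL/6J mice, with 1 sample per array and 78 arrays in all. For 12 days mice were injected intraperitoneally 2 times a day with methamphetamine, which was raised to 8 mg/kg over a starting dose of 2 mg/kg, with heroin, which was raised to 40 mg/kg over a starting dose of 10 mg/kg, or with saline. Striata of all 3 treatments were taken on days 1, 3, 6 and 12 of treatment and in withdrawal on days that the labels call 13, 15, 18 and 24. There were 3 arrays for each drug and day, 12 for each drug and phase, and 6 of naive mice. In the headers of the signal table the withdrawal days are 1, 3, 6 and 12, and the series' design text calls the labelled days days of withdrawal, so the time since the last injection is inferred and the labelled days serve as names. Nothing in the labels says that replicates are separate animals, so p-values measure the spread between these samples, which may in part be technical. Array medians lay between 95 and 184.1 intensity units, and the number of arrays limits the precision.

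Microglia are the resident macrophages of the brain. They depend on signalling through the receptor encoded by Csf1r to survive, sense neurons through the receptors encoded by Cx3cr1 and P2ry12, and are a main source of the complement component C1q, which tags synapses for removal. When microglia are activated, P2ry12, Tmem119 and Cx3cr1 typically fall and Trem2-dependent genes rise, which is why the 9 genes are often read together. In RNA from whole tissue, fewer microglia and less of an RNA per microglial cell cannot be told apart.

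The myeloid factor PU.1, which microglia need to form, binds DNA at sites built around the letters GAGGAAGT. The promoters of Fcrls, Ctss and P2ry12 are shown because their probes passed the tests below. Each run is 300 bases from RefSeq on the build GRCm38.p6, read 5′ to 3′ on the strand of the gene. It holds 250 bases before and 50 after the start position used for that promoter. The Fcrls promoter is chr3:87263475-87263774 on the minus strand, that of Ctss chr3:95526536-95526835 on the plus strand, and that of P2ry12 chr3:59262936-59263235 on the minus strand. The RefSeq span of Fcrls is chr3:87250736-87263765, so its run lies almost wholly inside the gene. The start used for Fcrls is thus not the outer end of that span, as it is for Ctss and P2ry12. Capitals mark matches to GAGGAA or GGAAGT, the overlapping parts of that motif, on either strand.
Fcrls: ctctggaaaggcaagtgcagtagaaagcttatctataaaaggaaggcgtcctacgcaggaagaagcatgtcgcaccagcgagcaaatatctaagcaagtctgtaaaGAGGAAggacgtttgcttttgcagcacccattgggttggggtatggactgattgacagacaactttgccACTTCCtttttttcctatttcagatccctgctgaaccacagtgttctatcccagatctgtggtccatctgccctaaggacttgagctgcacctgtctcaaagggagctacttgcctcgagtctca
Ctss: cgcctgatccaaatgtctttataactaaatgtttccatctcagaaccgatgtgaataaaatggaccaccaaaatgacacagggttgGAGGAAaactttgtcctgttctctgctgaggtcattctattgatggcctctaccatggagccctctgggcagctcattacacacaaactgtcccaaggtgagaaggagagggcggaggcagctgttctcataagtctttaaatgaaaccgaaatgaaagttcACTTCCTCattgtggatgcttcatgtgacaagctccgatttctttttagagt
P2ry12: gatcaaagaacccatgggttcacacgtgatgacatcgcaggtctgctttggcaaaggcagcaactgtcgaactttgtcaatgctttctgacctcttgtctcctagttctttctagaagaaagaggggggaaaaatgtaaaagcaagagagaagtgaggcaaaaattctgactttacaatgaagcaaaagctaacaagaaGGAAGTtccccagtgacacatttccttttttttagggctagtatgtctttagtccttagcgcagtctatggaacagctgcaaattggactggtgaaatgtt

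The whole motif GAGGAAGT was found, counting both strands, in the promoter of Ctss and in none of the other 5 member promoters in the RefSeq table (P2ry12, Fcrls, Cx3cr1, C1qb and Trem2), against 3.2% of all 32851 promoters of that length. In Ctss it lies on the strand opposite to the gene, across the start. GAGGAA alone was found in 4 of the 6 member promoters (C1qb, Ctss, Fcrls and Trem2), against 28.3% of all promoters, and GGAAGT in 4 of the 6 (C1qb, Ctss, Fcrls and P2ry12), against 23.8%. Cx3cr1 held neither. A match describes these letters and is not evidence of binding. Csf1r, C1qa and Tmem119 are named only.

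All 9 genes were detected in striatum. Mean log2 signals over the 78 arrays were 9.95 for Cx3cr1 (the fractalkine receptor), 8.72 for P2ry12 (a receptor for ADP), 10.63 for Csf1r (the receptor of the growth factors CSF1 and IL34), 9.47 for Trem2 (a lipid-sensing receptor), 10.75 for the brightest probe of Fcrls (a scavenger receptor of the Fc receptor-like family), 9.08 for Tmem119 (a surface protein used to mark microglia), 9.45 and 10.96 for C1qa and C1qb (subunits of C1q), and 8.82 for Ctss (cathepsin S, a lysosomal and secreted protease). Brightness is specific to a probe, so these values do not rank the genes. A probe was tested if, in some group, every array had it above that array's own median, which held for 12 of the 13 member probes and for 23810 probes in all. A group in which a gene is high is enough for this. The other P2ry12 probe averaged 6.87, exceeded the array median on 19 of 78 arrays and was not tested.

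Some of these probes differed more between the slides, which hold 6 arrays each, than between any of the groups within a slide. Slide means of Ctss ran between 7.35 and 10.05, those of P2ry12 between 7.6 and 9.52, and those of the brighter Csf1r probe between 10.11 and 11. Of the variance between arrays, 93.9% lay between the 13 slides for Ctss, 91.3% for P2ry12 and 86.1% for Csf1r, against a median of 39.6% over all tested probes. Only 0.697%, 1.74% and 3.5% of probes had a higher share than Ctss, P2ry12 and Csf1r. The remaining 9 tested member probes had shares of 28.5 to 45.8%, and the slide means of Cx3cr1 spanned only 0.23.

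**Figure D1:**
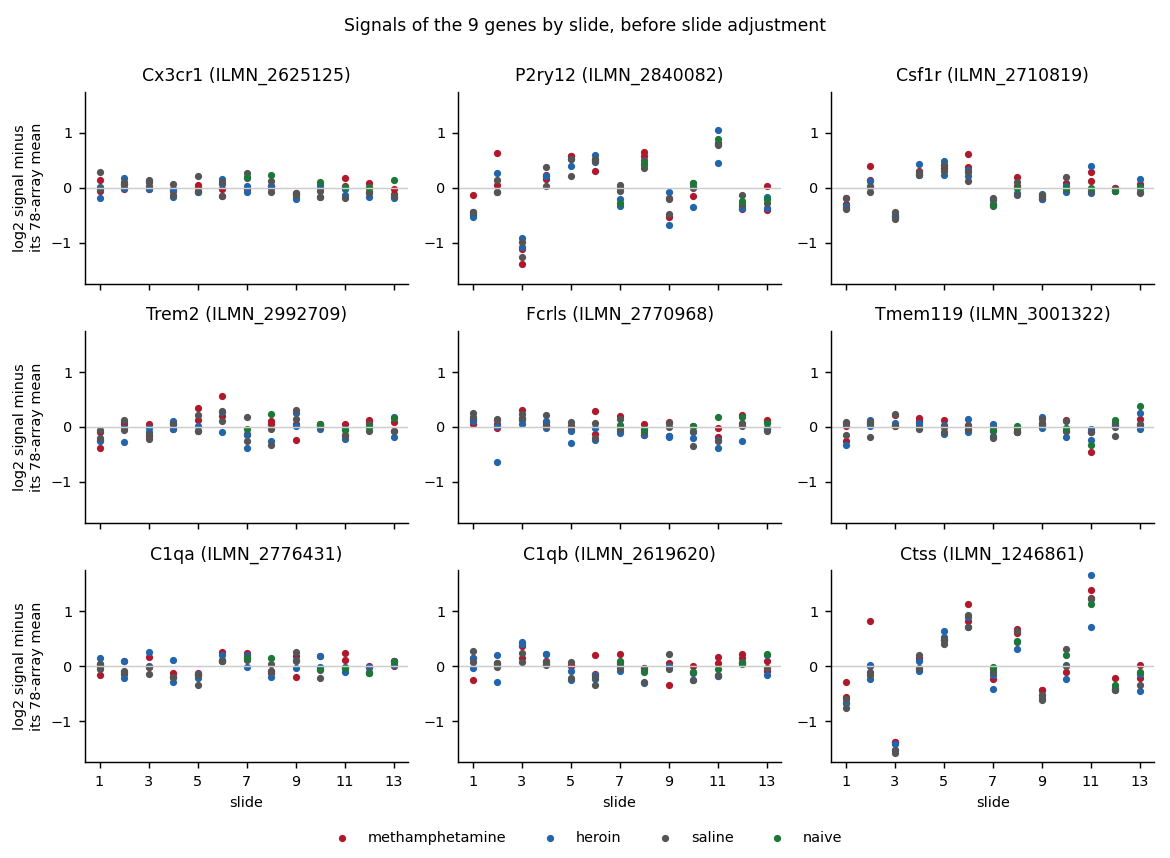
Log2 signal minus the probe's mean over 78 arrays (vertical axis) by slide (horizontal axis, 1 to 13), with a panel for 1 probe of each of the 9 genes and a point per array coloured by drug. Ctss, P2ry12 and the brighter Csf1r probe shift up or down as whole slides, lowest on slide 3, while the Cx3cr1 slide means span only 0.23.

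Drug comparisons were therefore adjusted for slide, with a term for each slide in a limma fit to all arrays. No slide held different drugs of the same labelled day, so comparisons on a day rest on the fitted slide terms. Levels below called slide-adjusted have the slide effects of that fit taken out. As measured, the signals of Ctss and P2ry12 correlated at 0.95 over the 78 arrays, and with slide means taken out at 0.61. The pair P2ry12 and Csf1r went to 0.34 with slide means out, against 0.77 as measured. Within slides the tightest pairs were C1qb with Trem2 at 0.69 and C1qa with C1qb at 0.64, while the 3 Fcrls probes correlated with each other at 0.65, 0.51 and 0.5. The 2 Csf1r probes hardly moved together, at 0.07. All of these describe the same 78 libraries.

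The main difference within these genes was between the drugs during treatment. Fcrls, Ctss and P2ry12 were higher in methamphetamine-treated than in heroin-treated striatum, by 0.16 to 0.23 log2 units. Of the 12 tested member probes 4 passed (limma, adjusted p over all 23810 probes, threshold 0.05), all higher, against 2.83% of all probes in either direction and 1.6% higher, and 7 had an unadjusted p under 0.05, against 16.5% of all probes. Of the 12 differences 10 were positive, with a median of 0.0987, against -0.000621 over all probes. None of the 4 calls held with day 1 left out, as described below.

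The brightest Fcrls probe, ILMN_2770968, had slide-adjusted levels with a lowest, median and highest value of 10.65, 10.87 and 10.97 on the 12 methamphetamine treatment arrays, and of 10.45, 10.69 and 10.84 on the 12 heroin treatment arrays. The ranges overlapped, but the methamphetamine median exceeded the highest heroin array. Before slide adjustment the means were 10.84 ± 0.134 with methamphetamine and 10.66 ± 0.122 with heroin (SD, n = 12 each). The change was 0.19 ± 0.0456 log2 units (SE, limma adjusted p = 0.0144). Methamphetamine was the higher drug on 10 of the 11 slides that held both. On each slide the drugs compared were of different labelled days. Slide counts and differences within slides, here and below, thus mix drug with day. The array names fall into a pair of prefixes, and the mean difference within slides was 0.08 on the 3 slides with the first prefix and 0.22 on 8 slides with the second.

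The second Fcrls probe, ILMN_2831436, gave 9.07, 9.25 and 9.39 as lowest, median and highest slide-adjusted level with methamphetamine and 8.88, 9.11 and 9.26 with heroin. It was higher with methamphetamine by 0.16 ± 0.0355 (limma adjusted p = 0.00758, 9 of 11 slides), with mean differences within slides of 0.10 and 0.17 for the first and second prefix. The third, ILMN_1219764, gave 7.96, 8.11 and 8.31 with methamphetamine and 7.77, 7.98 and 8.15 with heroin, a difference of 0.15 ± 0.0461 that did not pass (limma adjusted p = 0.0611). Its mean difference within slides was -0.01 for the first prefix and 0.23 for the second.

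Ctss had slide-adjusted levels of 8.60, 8.95 and 9.22 (lowest, median, highest) with methamphetamine and 8.35, 8.71 and 8.90 with heroin. The methamphetamine median lay above every heroin array. Its change was 0.23 ± 0.0626 (limma adjusted p = 0.0269), a ratio of 1.18, with methamphetamine higher on 9 of 11 slides, by 0.16 on average for the first prefix and 0.25 for the second. As measured, with the slides left in, the means were 8.92 ± 0.748 with methamphetamine and 8.64 ± 0.642 with heroin (SD, n = 12 each).

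P2ry12 had 8.54, 8.79 and 9.10 with methamphetamine and 8.33, 8.66 and 8.86 with heroin. Its change of 0.17 ± 0.0504 (limma adjusted p = 0.0464, ratio 1.13, 9 of 11 slides, 0.15 and 0.18 by prefix) was the closest to the threshold of the 4. The other genes did not pass. Trem2 differed by 0.10 (limma adjusted p = 0.253), the brighter Csf1r probe by 0.09 (adjusted p = 0.244) and Tmem119 by 0.06 (adjusted p = 0.519), while C1qb and Cx3cr1 each differed by 0.01, C1qa by -0.03 and the dimmer Csf1r probe by -0.02. None of the 4 calls held without the slide term or on the 60 arrays of the second prefix alone, and with the deposited log2 values only Fcrls ILMN_2831436 passed (limma adjusted p = 0.0411). With 1 of the 78 arrays left out, the 2 Fcrls probes passed in 78 fits, Ctss in 72 and P2ry12 in 51.

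**Figure D2:**
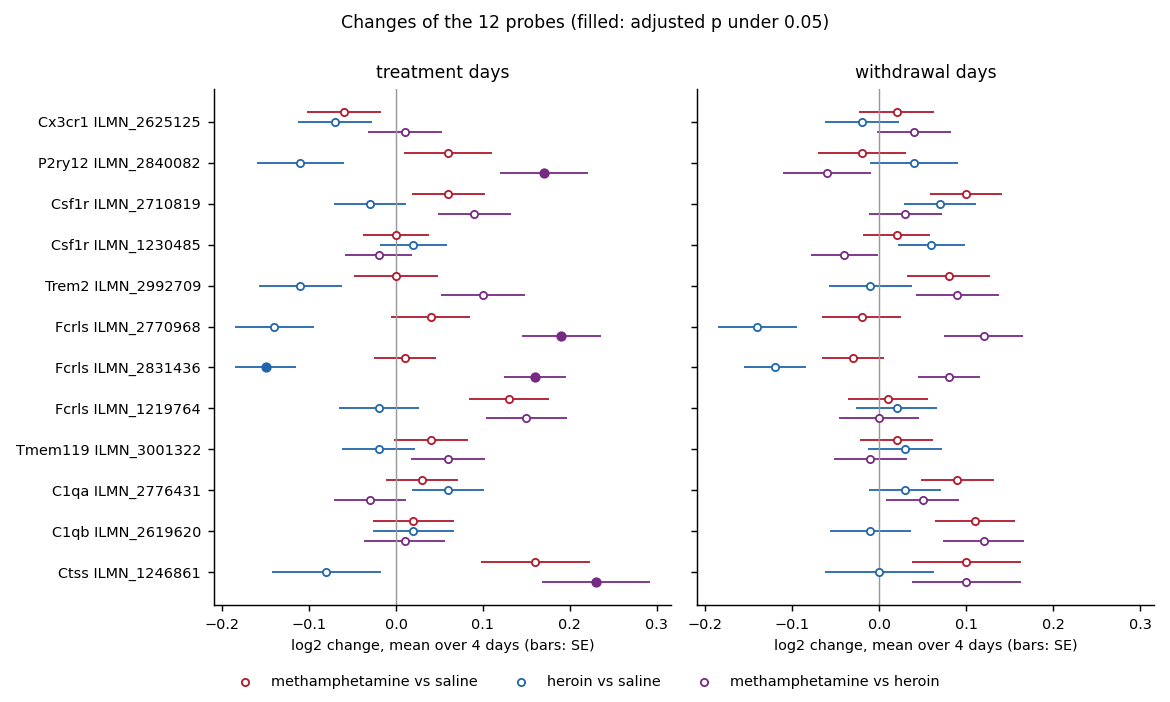
Log2 change (horizontal axis, points with SE bars) of each tested member probe in the drug comparisons of treatment and withdrawal, with probes down the page. Filled points mark probes past the adjusted threshold, which are 2 Fcrls probes, Ctss and P2ry12 for methamphetamine against heroin and 1 Fcrls probe for heroin against saline, all in treatment.

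All 11 medium spiny neuron genes on the array, markers of the main cell of the labelled tissue, passed the filter. The methamphetamine arrays of day 1 stood apart from the rest. A list's score was the mean slide-adjusted log2 level of its genes minus that of the median array. On the day 1 methamphetamine arrays the score of hippocampal and cortical marker genes was 0.91 to 1.41, against -0.33 to 0.55 on all other arrays. That of medium spiny neuron genes was -2.74 to -0.62, against -0.83 to 0.59. The mean of the 9 microglia genes on the same 3 arrays was -0.09 to -0.02, against 0.01 to 0.19 on the other 9 methamphetamine treatment arrays, -0.20 to 0.01 on the heroin treatment arrays and -0.09 to 0.07 on the saline treatment arrays. With those 3 arrays out and day 1 left out of all treatment means, none of the 12 member probes passed for methamphetamine against heroin, with 6 at an unadjusted p under 0.05 against 6.33% of all probes, and 3 of 23689 probes (0.0127%) passed in all.

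The effect sizes moved in different ways without day 1. The 2 Fcrls changes were larger, at 0.25 ± 0.0599 for ILMN_2770968 (limma adjusted p = 0.134) and 0.22 ± 0.047 for ILMN_2831436 (adjusted p = 0.0605). Ctss stayed close at 0.24 ± 0.083 (limma adjusted p = 0.571). P2ry12 was at 0.09 ± 0.0655 (limma adjusted p = 0.898), against 0.17 with day 1, and Trem2 at 0.21 ± 0.0627 (adjusted p = 0.379), against 0.10. Of the 12 differences 11 were positive, with a median of 0.12.

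**Figure D3:**
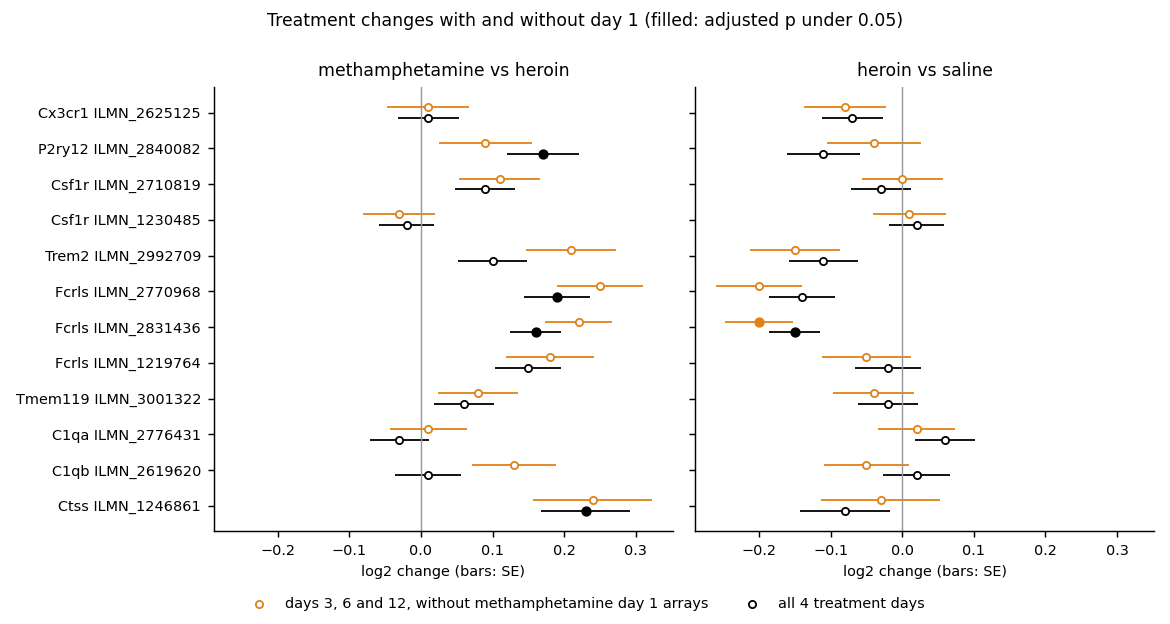
Log2 change (horizontal axis, points with SE bars) of each tested member probe over treatment, for methamphetamine against heroin at the left and heroin against saline at the right, without day 1 (orange) and with all 4 days (black), filled where the adjusted p was under 0.05. The left-hand differences of Fcrls and Trem2 move away from 0 without day 1 and that of P2ry12 moves toward 0, to 0.09.

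By day, the median difference of the members between the drugs was furthest from 0 on day 6. Of the 12 member probes 11 read higher with methamphetamine than with heroin on that day, with a median difference of 0.28, and 8 had an unadjusted p under 0.05, against 3.94% of all probes. None passed after adjustment, as only 5 probes of 23810 (0.021%) did on that day with 3 arrays a group. Ctss had slide-adjusted levels of 9.22, 8.88 and 9.01 with methamphetamine on day 6, against 8.69, 8.53 and 8.35 with heroin, without overlap, a difference of 0.51 (limma adjusted p = 0.768).

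Trem2 had 9.82, 9.60 and 9.69 with methamphetamine on day 6, against 9.37, 9.28 and 9.32 with heroin. This was again without overlap, a difference of 0.38 that did not pass. How many of all probes separate in this way on this day was not counted. C1qb had 11.29, 11.02 and 11.12 with methamphetamine and 10.97, 10.80 and 10.83 with heroin, a difference of 0.28. P2ry12 had 8.77, 8.67 and 8.86 with methamphetamine and 8.38, 8.52 and 8.33 with heroin, a difference of 0.35. On this day the saline arrays read 9.48, 9.32 and 9.38 for Trem2 and 8.75, 8.96 and 8.78 for P2ry12. So the 3 methamphetamine arrays were above the 3 saline arrays for Trem2, while for P2ry12 the heroin arrays were below those of saline.

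The brightest Fcrls probe behaved alike on day 6 and day 12. On day 6 it read 10.97, 10.92 and 10.92 with methamphetamine, 10.62, 10.71 and 10.59 with heroin and 10.85, 10.73 and 10.83 with saline. On day 12 it read 10.88, 10.83 and 10.93 with methamphetamine, 10.50, 10.45 and 10.45 with heroin and 10.73, 10.88 and 10.66 with saline. Every heroin array lay below every methamphetamine and saline array on both days. How many of all probes separate in this way was not counted, and no member probe passed on either day. The differences between methamphetamine and heroin were -0.01, 0.04, 0.30 and 0.41 on days 1, 3, 6 and 12, and those of ILMN_2831436 were -0.04, 0.04, 0.30 and 0.33.

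On day 1 the members differed in other directions. P2ry12 was the only member probe past the threshold on any single day, at 9.10, 8.83 and 8.89 with methamphetamine against 8.41, 8.74 and 8.41 with heroin, a difference of 0.42 (limma adjusted p = 0.0416), on a day on which 6.54% of all probes passed. The saline arrays of day 1 read 8.88, 8.79 and 8.86. C1qb went the other way, with 10.58, 10.89 and 10.63 with methamphetamine against 11.19, 11.01 and 10.99 with heroin, a difference of -0.36 (limma adjusted p = 0.0573). Trem2 differed by -0.22 and C1qa by -0.16 on that day. Whether the make-up of the day 1 methamphetamine arrays had a part in these values was not tested.

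On the other single days, 0 to 0.021% of all probes passed for methamphetamine against heroin (0% on days 3, 13, 18 and 24, 0.0042% on days 12 and 15). For methamphetamine against saline 5.74% passed on day 1, 0.0462% on day 6, 0.0294% on day 12, 0.0168% on day 13, 0.0378% on day 18 and none on days 3, 15 and 24. For heroin against saline 0.0042% passed on day 3, 0.0126% on day 6, 0.118% on day 12, 0.323% on day 15 and none on the other days. With 3 arrays a group, single days thus passed few probes outside methamphetamine day 1.

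A test of whether the drug difference varied over the 4 treatment days (limma's moderated F) found no member probe past the threshold for methamphetamine against heroin, where 1.02% of all probes passed, with 5 of the 12 members at an unadjusted p under 0.05, against 10.2% of all probes, and C1qb lowest (adjusted p = 0.236). For heroin against saline 0% of all probes passed and the lowest p was that of P2ry12 (adjusted p = 1), with daily changes of -0.33, 0.16, -0.42 and 0.15.

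**Figure D4:**
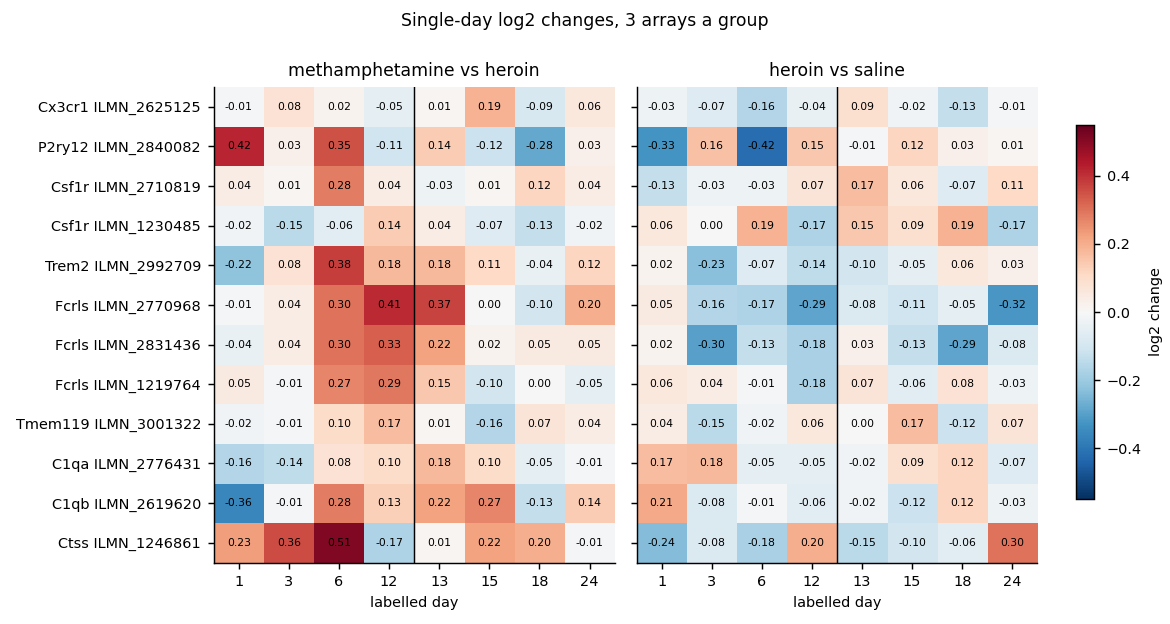
Log2 differences of each tested member probe (rows) on each labelled day (columns), for methamphetamine against heroin at the left and heroin against saline at the right, with colour for direction and size, the value in each cell and a line between treatment and withdrawal days. On day 6 the left panel is positive for 11 of the 12 probes, and the 0.42 of P2ry12 on day 1 is the only value past the adjusted threshold.

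Fcrls was lower with heroin than with saline during treatment. ILMN_2831436 had slide-adjusted levels of 8.88, 9.11 and 9.26 (lowest, median, highest) on the heroin treatment arrays and 9.12, 9.21 and 9.47 on the saline treatment arrays. The heroin median lay below every saline array. The change was -0.15 ± 0.0355 (limma adjusted p = 0.0221), a ratio of 0.902, and heroin was lower on 11 of the 11 slides with both, with slide differences of -0.44 to -0.01 (means of -0.08 and -0.15 by prefix). It was the 1 called of the 12 member probes, against 1.05% of all probes in either direction and 0.441% lower.

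The brightest Fcrls probe differed by -0.14 ± 0.0456 (limma adjusted p = 0.12) and was lower on 10 of 11 slides. The third Fcrls probe differed by -0.02 (limma adjusted p = 0.915), so the probes disagree in size here. P2ry12 and Trem2 each differed by -0.11 (limma adjusted p = 0.37 and 0.349). Of the 12 differences 9 were negative, with a median of -0.0512. Without day 1 the ILMN_2831436 change was -0.20 ± 0.0471 (limma adjusted p = 0.0191) against 0.726% of probes passing, so this call did not rest on that day. Its daily changes were 0.02, -0.30, -0.13 and -0.18 on days 1, 3, 6 and 12. The comparison shares its heroin arrays with that of methamphetamine against heroin. The call was lost with median centring (limma adjusted p = 0.105), without the slide term (adjusted p = 0.328), with only the groups compared (adjusted p = 0.29), on the second prefix alone (adjusted p = 0.077) and with each of 6 of the 78 arrays left out, at an adjusted p of up to 0.0946.

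Methamphetamine against saline gave no member probe past the threshold, where 3.32% of all probes passed, and 2 of the 12 member probes had an unadjusted p under 0.05, against 16% of all probes. Those were Ctss at 0.16 ± 0.0626 (limma adjusted p = 0.175, higher on 10 of 11 slides) and the dimmest Fcrls probe at 0.13 ± 0.0461 (adjusted p = 0.122, higher on 10 of 11 slides). The other 10 differences lay between -0.06 and 0.06. Without day 1 none passed either (0.224% of all probes), and Ctss was at 0.21 (limma adjusted p = 0.435).

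**Figure D5:**
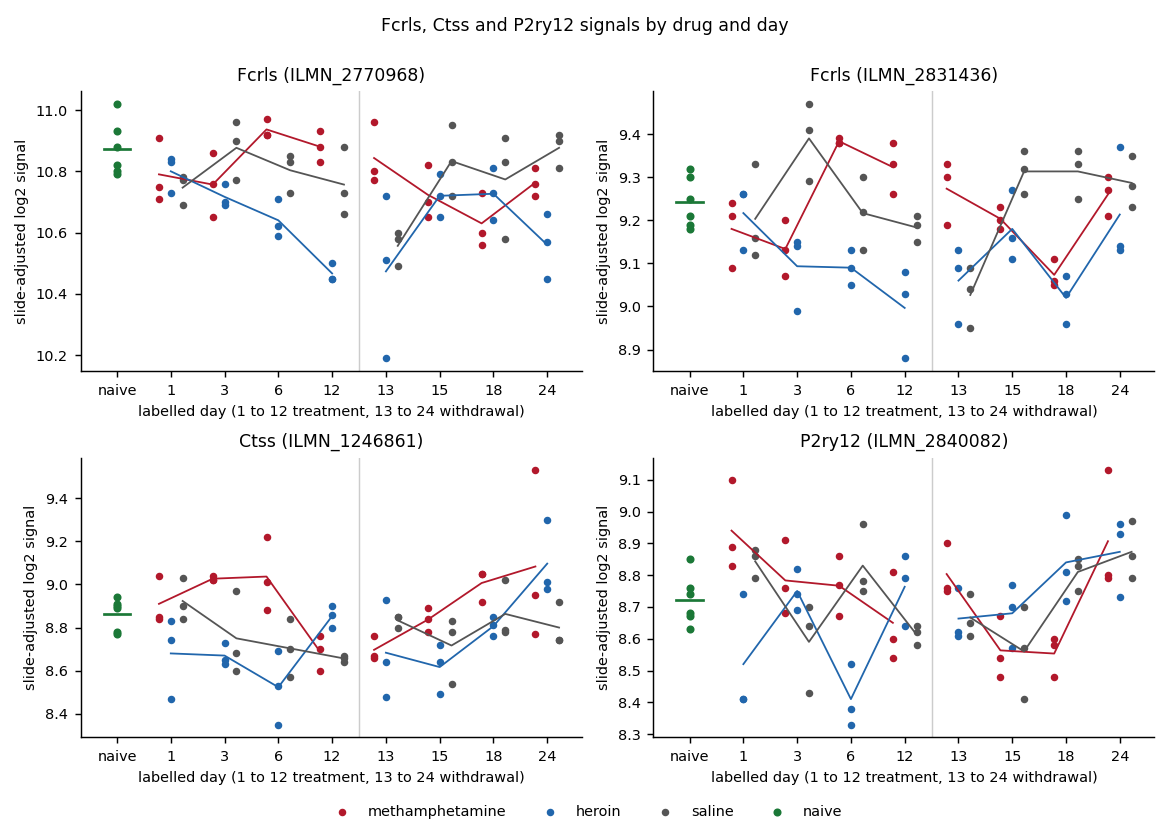
Slide-adjusted log2 signal (vertical axis) of 2 Fcrls probes, Ctss and P2ry12 by labelled day (horizontal axis), with a point per array, lines through the 3-array means of methamphetamine, heroin and saline, and a bar at the mean of the naive arrays. The heroin arrays of days 6 and 12 lie below those of methamphetamine and saline for the brightest Fcrls probe. Such separations were not counted over all probes, and the vertical axes do not start at 0.

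In withdrawal no member probe passed for methamphetamine against saline (0.021% of all probes), heroin against saline (0.042%) or methamphetamine against heroin (0.0042%), with 3, 2 and 3 of the 12 at an unadjusted p under 0.05, against 5.54%, 10% and 6.06% of all probes. The 2 brighter Fcrls probes had negative values here too. Against saline in heroin withdrawal the brightest probe was at -0.14 (limma adjusted p = 0.269) and ILMN_2831436 at -0.12 (adjusted p = 0.236), lower on 9 and 8 of 11 slides.

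The heroin withdrawal arrays spanned 10.19, 10.66 and 10.81 (lowest, median, highest) for the brightest probe, against 10.49, 10.82 and 10.95 with saline. The lowest of them, heroin day 13 replicate 2, measured 10.12 on a slide on which the other arrays read 10.74 to 10.89. On day 13 saline was low as well, at 10.58, 10.60 and 10.49, against 10.96, 10.77 and 10.80 with methamphetamine. For methamphetamine against saline in withdrawal, C1qb was at 0.11 (limma adjusted p = 0.883) and the brighter Csf1r probe at 0.10.

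Methamphetamine day 24 replicate 2 measured 9.64 for Ctss, against 8.59 to 8.85 on the rest of its slide, and 9.36 for P2ry12, against 8.64 to 8.98. When each drug's treatment change was set against its withdrawal change, no member probe was past the threshold for methamphetamine (0.374% of all probes), heroin (0.021%) or the difference between the drugs (0.286%). So the drug differences of treatment are not shown to differ from those of withdrawal. The P2ry12 value for methamphetamine against heroin was 0.23 (limma adjusted p = 0.143).

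Saline against naive gave no member probe past the threshold in treatment (0.0126% of all probes) or withdrawal (0.13%). All 6 naive arrays were the last of their slide, a place that no saline treatment array had. The part of array position in this comparison was not tested. The largest difference was that of Cx3cr1, the receptor for neuronal fractalkine. Its slide-adjusted levels were 9.75, 9.88 and 10.15 (lowest, median, highest) in saline withdrawal, against 9.98, 10.10 and 10.22 on the 6 naive arrays. That is a change of -0.17 ± 0.0541 (limma adjusted p = 0.269), with 10 of the 12 member differences negative.

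In treatment the Cx3cr1 change was -0.09, and that of Tmem119 was -0.12 (limma adjusted p = 0.643). The naive group also had the highest Cx3cr1 mean of all 25 groups, at 10.09, just above saline day 6 at 10.08, a gap well within the mean SD within groups of 0.0824. The lowest Cx3cr1 mean was 9.82, on methamphetamine day 18.

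Over the 25 groups, the brightest Fcrls probe had its lowest slide-adjusted means on heroin day 12 and heroin day 13, both 10.47, and its highest on methamphetamine day 12 (10.88) and methamphetamine day 6 (10.94). The whole range was 0.47, with a mean SD within groups of 0.0857. Neighbouring groups in this order differed by less than that SD at both ends. Trem2 and C1qb each had their lowest mean on methamphetamine day 1 (9.22 and 10.7) and their highest on methamphetamine day 6 (9.7 and 11.14). Ctss was lowest on heroin day 6 (8.52) and highest on heroin day 24 (9.1). P2ry12 was lowest on heroin day 6 (8.41) and highest on methamphetamine day 1 (8.94). Tmem119 ran between 8.95 on methamphetamine day 3 and 9.2 on methamphetamine day 24, C1qa between 9.31 on saline day 1 and 9.64 on heroin day 3, and the brighter Csf1r probe between 10.51 on saline day 13 and 10.84 on methamphetamine day 6.

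Genes outside the list that followed the mean of the 9 most closely, over 78 arrays with slide means out, were Ly86 (0.7), Mpeg1 (0.68), Laptm5 (0.65), Ccl9 (0.62), Cd53 (0.6), Nckap1l (0.6), Aif1 (0.56), Mag (0.55), Pcdhb6 (0.55) and Rhobtb2 (0.55), against a median of -0.00154 and a 95th percentile of 0.289 over all probes.

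In treatment 2.83% of all probes passed for methamphetamine against heroin, 3.32% for methamphetamine against saline and 1.05% for heroin against saline. The list counts below stand beside these shares. Of 17 tested genes of another list of microglia genes, 2 were higher with methamphetamine than with heroin in treatment and none was lower. The list median was 0.0146, against -0.000621 over all probes. Ly86, which encodes a partner of a Toll-like receptor homologue, was higher by 0.20 ± 0.0329 (limma adjusted p = 0.000166), and Mpeg1, which encodes a pore-forming protein of macrophages, by 0.24 ± 0.0516 (adjusted p = 0.00546). Without day 1, Ly86 was at 0.28 ± 0.0441 (limma adjusted p = 0.00191), one of the 3 probes of the whole array that passed, and Mpeg1 at 0.31 ± 0.067 (adjusted p = 0.0605). Ly86 fell with heroin against saline, by 0.14 ± 0.0329 on the log2 scale (adjusted p = 0.0204; adjusted p = 0.064 without day 1). P2ry13, a second ADP receptor, was the only list gene that changed with methamphetamine against saline, by -0.16 ± 0.0425 (adjusted p = 0.0201; adjusted p = 0.423 without day 1).

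Among 14 ligands and partners of the members, 1 rose with methamphetamine against saline and none changed in the other 2 treatment comparisons. This was C4b, a complement component downstream of C1q, at 0.24 ± 0.0597 (limma adjusted p = 0.0154; adjusted p = 0.155 without day 1). Of 13 genes of activated microglia none changed with methamphetamine against saline, Lpl rose by 0.22 ± 0.0563 with heroin against saline (limma adjusted p = 0.0397; adjusted p = 0.117 without day 1), and Ctsd was higher by 0.16 ± 0.0423 with methamphetamine than with heroin (adjusted p = 0.0233; adjusted p = 0.548 without day 1).

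Of 11 cathepsin genes, Ctsd and Ctss, both already counted above, were higher with methamphetamine than with heroin. In the same list Ctsk fell with methamphetamine against saline by 0.17 ± 0.0508 on the log2 scale (limma adjusted p = 0.045, and 0.751 without day 1). No gene of these lists passed in withdrawal or for saline against naive.

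Markers of other cells were followed beside these results. None of 6 border macrophage genes and none of 5 blood leukocyte genes passed in the comparisons of treatment, withdrawal or saline against naive, and 1 of the blood leukocyte genes was lower with methamphetamine than with heroin on day 1. The border macrophage score was -0.15 to 0.08 on the methamphetamine arrays of days 3 to 12, -0.24 to 0.19 on the heroin treatment arrays and -0.17 to 0.14 on the saline treatment arrays. Of 4 red cell genes, 2 were lower with methamphetamine than heroin (Hba-a1 at -0.46 and Hbb-bt at -0.42; limma adjusted p = 0.642 and 0.78 without day 1). Of 9 astrocyte genes 3 were higher with methamphetamine than with heroin (Gfap, Slc1a2 and Aqp4, limma adjusted p = 0.0605, 0.322 and 0.591 without day 1). Against saline, 3 were higher with methamphetamine (Gfap, Slc1a2 and Aldoc, limma adjusted p = 0.000612, 0.028 and 0.344 without day 1). Of the same 9, 1 was lower with heroin than with saline, which was Aqp4 (limma adjusted p = 0.0435 without day 1). The part of these other cells in the microglia results was not tested.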

How the data were processed

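Striatal total RNA was labelled as biotinylated cRNA and measured on Illumina arrays with 6 arrays per slide, per the labels' protocols. The deposited signal table holds linear intensity values, 1 per probe and array, per the file headers. A second deposited table holds log2 values with array medians between 6.936 and 6.948. How either was made is not given in the sources used here, and neither holds detection p-values, so a filter on them was replaced by one on the array median.

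The intensity values were quantile-normalized and log2-transformed. One limma model (3.58.1, R 4.3.3) fitted 78 arrays with 25 group means and a term per slide, 37 coefficients and 41 residual degrees of freedom. Drugs were compared over the 4 days of a phase, two-sided, with Benjamini-Hochberg adjustment over 23810 probes and a threshold of 0.05. By platform annotation 34885 probes carried 1 symbol, 18 carried several and 10378 were left unnamed. The members, lists and tests were chosen with earlier results of these data known. All members are named, as are the 10 genes most like the members' mean. List genes past the threshold over the treatment days are named for the microglia, partner, cathepsin, red cell and astrocyte lists. Those of the neuron and endothelial lists are not named. On simulated arrays with 200 changed probes among 23810, the fit recovered 26, 95 and 98% of changes of 0.15, 0.3 and 0.6 between methamphetamine and heroin in treatment.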

Additional observations from a re-analysis of the deposited data

Results flagged for a closer look

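On the brighter Csf1r probe, ILMN_2710819, naive replicate 4 measured 10.31, below the nearest of the other 5 naive arrays at 10.58. Its gap to that array was 0.799 of the range of the group and exceeded Dixon's 95% critical value for 6 samples. Chance flags about 1 in 20 groups. The array lies on a slide whose mean for this probe was 10.37, and with slide effects taken out the ratio was 0.31, below the critical value.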

How the results depend on the processing

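For methamphetamine against heroin in treatment, the 4 member probes became 1 with the deposited log2 values, 0 without the slide term, 2 with slide as a random block, 0 on the 60 arrays of the second name prefix, 1 with only the groups compared and 0 without methamphetamine day 1. The 1 member probe lower with heroin than saline became 0 with median centring, 1 probe per symbol (which leaves that probe out of the test), no slide term, the second prefix alone or only the groups compared, and 2 with array weights. Array weights also gave 1 for methamphetamine against saline, where there was 0. On the second prefix alone the heroin change of Fcrls ILMN_2831436 was -0.18 (limma adjusted p = 0.077), and without the slide term the methamphetamine against heroin differences were 0.28 ± 0.296 for Ctss and 0.23 ± 0.218 for P2ry12. The deposited values have residual SDs of 0.165 times those of the signals (median of all probes), but 0.702 for Ctss and 0.529 for P2ry12, and on the methamphetamine day 1 arrays their deviations correlated with those of the signals at only -0.11, 0.11 and 0.34. With any 1 of the 78 arrays left out there were 2 to 5 member probes for methamphetamine against heroin, 0 to 1 for heroin against saline, 0 to 1 for methamphetamine against saline in treatment (1 without naive replicate 4) and 0 to 1 for heroin against saline in withdrawal (1 without heroin day 13 replicate 1). The count for methamphetamine against heroin was 2 without methamphetamine day 1 replicate 1, day 6 replicate 1 or day 12 replicate 2, or heroin replicate 3 of day 1, 3 or 6. That for heroin against saline was 0 without heroin day 1 replicate 2, day 3 replicate 2 or day 12 replicate 3, or saline day 1 replicate 3, day 3 replicate 3 or day 6 replicate 1. Both Fcrls probes passed for methamphetamine against heroin in 78 of these fits, Ctss in 72 and P2ry12 in 51, and Fcrls for heroin against saline in 72. The called probes kept their direction under these alternatives, while members near 0 that did not pass changed sign under some, such as C1qb for methamphetamine against heroin (-0.01 to 0.13). Whether replicate numbers pair the samples is not known. Of 72 pairs of same-numbered samples 19 had a correlation of deviations over 0.1 (-0.25 to 0.36, median 0.03). With the replicate number as a block, 5 probes passed for methamphetamine against heroin, adding the third Fcrls probe (limma adjusted p = 0.0257), and 1 for heroin against saline (adjusted p = 0.0312). The causes of these shifts were not tested. Changes of 0.15 were recovered for few simulated probes, which limits what can be said of members that did not pass.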
